A study of Homo sapiens with 5 samples.

Results

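The 51 genes described here encode the machinery that copies DNA and the enzymes that supply its building blocks, and they were chosen by name. All 51 had at least 1 probe set of their own on the array, among 19775 genes that did. They comprised 15 origin licensing genes, 9 polymerase genes, 4 nucleotide supply genes and 23 others, from helicase activation to chromatin assembly. RNA came from the Ewing sarcoma line MHH-ES-1, a human tumour line of long standing, taken 48 h after a microRNA mimic was transfected with a lipid reagent at 50 nM, and was read on Affymetrix expression arrays. A mimic is a synthetic short RNA that acts in the cell as a given mature microRNA would. There were 2 arrays of cells given miR-483-5p, 1 of cells given miR-483-3p and 2 of cells given a scrambled control mimic. miR-483-5p and miR-483-3p are the products of the 2 arms of one hairpin, MIR483. One array of each pair is labelled a repeat, with no word on separate cultures, so p-values speak to array-to-array spread alone, and that spread may be technical. All groups come from this single cell line, and no untransfected cells are among the samples analysed here.

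DNA replication begins when the origin recognition complex, CDC6 and CDT1 load the ring of MCM2 to MCM7 onto DNA, a step called licensing. CDC45 and the GINS complex turn that ring into the active helicase. Polymerases alpha, delta and epsilon make the new strands, with delta and epsilon held by the sliding clamp PCNA. Ribonucleotide reductase, thymidylate synthase and thymidine kinase supply the deoxynucleotides. Most of these genes are transcribed around the start of S phase under E2F transcription factors, and proliferating tumour cells express them strongly.

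The Ewing sarcoma markers CD99, NKX2-2, STEAP1, PRKCB, CCND1 and LIPI had signals between 825 and 6045 on all arrays, and NR0B1, the other of the 7 listed, has no probe set named here. CCND1, the cyclin that drives entry into S phase, had 6045 and 5717 with miR-483-5p and 5019 with miR-483-3p, against 4351 and 4566 in the control. LIPI, a lipase gene, had 900 and 825 with miR-483-5p and 967 with miR-483-3p, against 1325 and 1186 in the control. STEAP1, a membrane protein gene, had 1711 and 1860 with miR-483-5p and 1862 with miR-483-3p, against 1963 and 2207 in the control. Of the 6 Ewing sarcoma markers, 1 was thus higher and 2 were lower on all mimic arrays than on both controls. Their summed signal was 17831 and 16735 with miR-483-5p and 16311 with miR-483-3p, against 16206 and 17199 in the control, so the groups overlapped. The part of these markers in the differences described here was not tested. The 8 measured markers of leukocytes, epithelium, endothelium and muscle lay between 4.40 and 169.5, and of these the endothelial gene PECAM1 alone exceeded 46.9. On all mimic arrays 2 of these 8 (CD3E and DES) were higher and 2 (CDH1 and CDH5) lower than on both controls. The share of all genes that separate in this way was not counted, so neither set of markers has a background here. The summed signal of the 8 was 274 and 305 with miR-483-5p and 289 with miR-483-3p, against 294 and 270 in the control, again with overlap. The median signal of an array was 39.2 and 44.9 for miR-483-5p, 41.9 for miR-483-3p and 44.4 and 43.2 for the control, at a trimmed mean of 150.0 on each. The ratio of the 3' to the 5' probe set of GAPDH, a sign of RNA integrity, was 1.09 and 1.10 with miR-483-5p, 1.06 with miR-483-3p, against 1.02 and 0.996 in the control arrays. For ACTB, cells given miR-483-5p had ratios of 1.18 and 1.07, and those given miR-483-3p had 1.09, against 1.07 and 1.04 in the control arrays. Both ratios lay above both controls in each mimic array, as most of the signals below did, and their part in those differences was not tested.

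Replication genes were, as a group, slightly higher with either mimic than with the scrambled control, and no single gene passed the test. Differences are on the log2(signal + 32) scale, which understates changes of dim genes, and come from limma fitted to the 14591 genes that passed a filter on dim signals, all 51 members among them. With miR-483-5p 43 of the 51 were higher (84.3%, against 48.5% of all genes tested), and with miR-483-3p 49 were (96.1%, against 49.8%). The median difference was 0.19 with miR-483-5p, a 13.8% higher value, and 0.24 with miR-483-3p, an 18.1% higher value, where the medians over all genes were -0.01 and -0.001. Both comparisons use the same 2 control arrays, so they are not independent of each other. With array 1 of the control left out, 38 members were above the other control array with miR-483-5p (48.3% of all genes) and 45 with miR-483-3p (48.9% of all genes).

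No member had a limma adjusted p under 0.05 in either comparison, and neither did any other gene (0% of all genes tested). The lowest limma adjusted p among the members was 0.344 with miR-483-5p and 0.644 with miR-483-3p. At an unadjusted limma p under 0.05 there were 2 members with miR-483-5p (3.92%, against 10.7% of all genes) and 3 with miR-483-3p (5.88%, against 6.56%). All 5 of these differences were higher with the mimic, where 5.3% of all genes were under that p and higher with miR-483-5p and 5.41% under it and lower. With miR-483-3p those shares were 2.51% and 4.05%. This count depends on the settings. With miR-483-5p it ran from 0 members without control array 1 to 6 without array 2 of miR-483-5p and 9 with a limma prior that follows intensity, where 7.59%, 11.6% and 12.8% of all genes were under that p. With miR-483-3p it was 1 without control array 1 and 9 with that prior, where 5.95% and 6.63% of all genes were. In 29 members each miR-483-5p array exceeded each control array (56.9%, against 20.3% of all genes), and in 2 each was lower (3.92%, against 22.2%). The single miR-483-3p array lay above both controls in 42 members (82.4%, against 33.4%) and below both in 1 (1.96%, against 35.4%). A difference below 0 was found for 8 members with miR-483-5p (51.5% of all genes) and 2 with miR-483-3p (50.2% of all genes). In these bulk cultures a larger share of cells in S phase and more RNA per cell cannot be told apart.

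**Figure D1:**
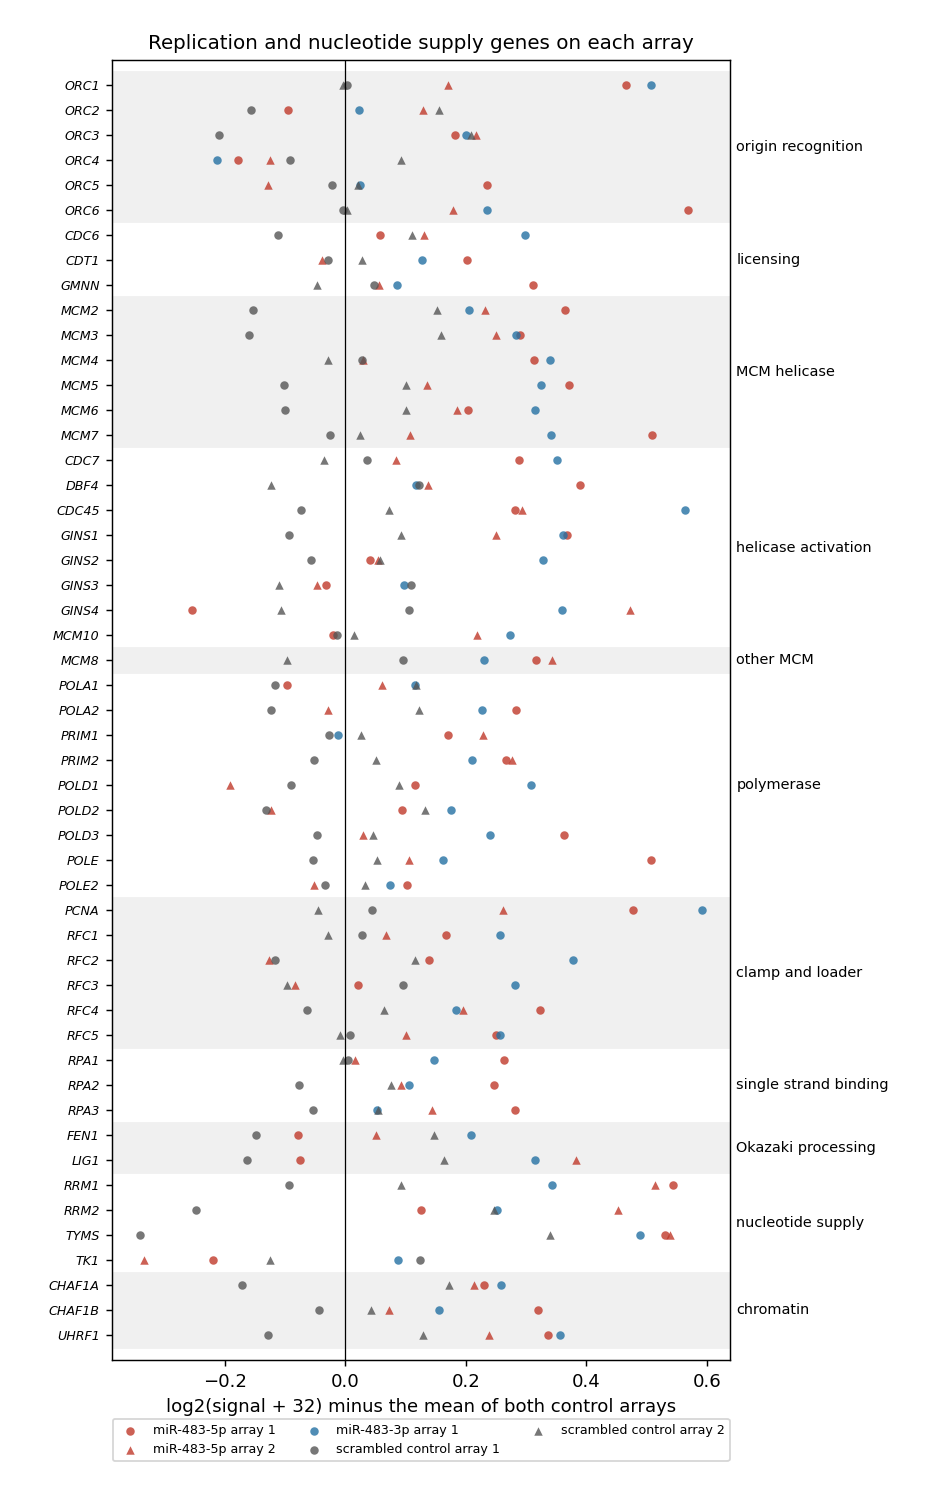
Each row is a gene and each point an array, as log2(signal + 32) minus the mean of both control arrays; shading separates the roles named on the right. Most red and blue points lie right of 0. Control array 1 (grey circles) is the lowest of the 5 arrays in 30 of the 51 genes, against 2906 of all 14591 genes tested.

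The 2 control arrays themselves differed on these genes. Control array 1 lay below control array 2 in 37 of 51 members (72.5%, against 50.1% of all genes), by a median of 0.11 on the log2 scale. Array 1 of miR-483-5p in turn lay above its repeat by a median of 0.12. The corresponding medians between mimic and control were 0.19 and 0.24. Taking each member relative to its mean over all arrays, the median member stood at 0.128 and -0.005 in the miR-483-5p arrays, 0.119 in the miR-483-3p array and -0.168 and -0.058 in the controls. The groups did not overlap on that scale for the median over all 51. They did for polymerase genes, at 0.093 and -0.076 with miR-483-5p and 0.099 with miR-483-3p, against -0.161 and 0.008 in the control. The origin recognition genes, the group of CDC6, CDT1 and GMNN and the pair FEN1 and LIG1 overlapped as well.

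**Figure D2:**
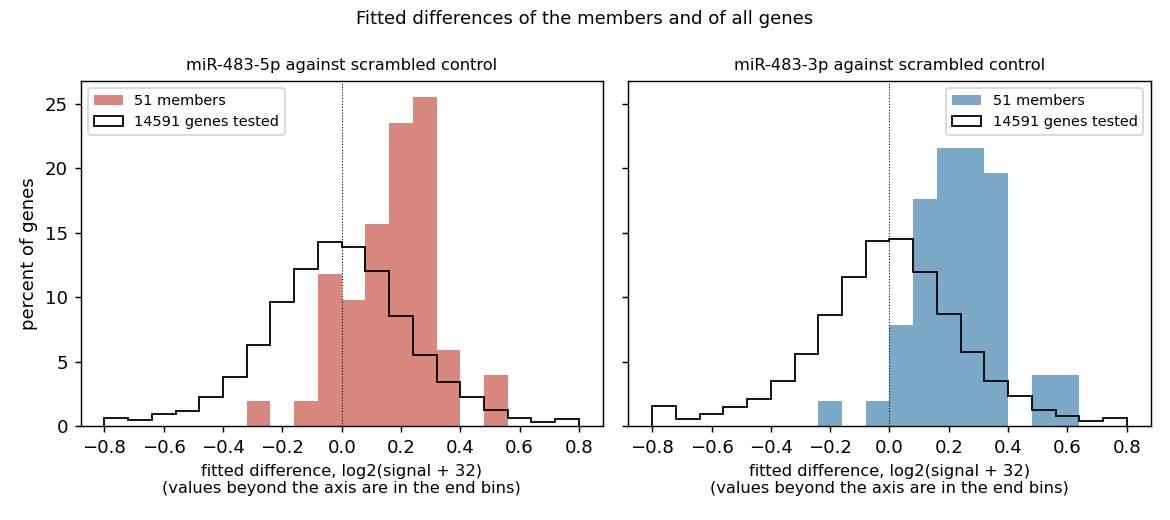
Fitted differences (x axis, log2 scale) of the 51 members (filled) and of the 14591 genes tested (outline), as percent of genes, for miR-483-5p (left) and miR-483-3p (right) against the control. The members centre on 0.19 and 0.24, all genes on -0.01 and -0.001.

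A promoter feature that the choice of genes did not use was common among the members, though not in all of them. RefSeq promoter windows (assembly GRCh38.p14, 250 bases before to 50 after a start) were found for 45 of the 51 members, 59 windows in all. The core of the E2F site, searched on both strands with overlapping matches counted, by the letters TTCCCGC, by the letters TTCGCGC, by the letters TTGCCGC and by the letters TTGGCGC, occurred in 37 of the 59 windows (62.7%), against 13% of all 35116 windows. By gene, 34 of 45 members had a match in at least 1 window (75.6%, against 15.3%). That background is all 27305 genes with a RefSeq window, whether or not they were tested on the arrays. The CCAAT box, searched as CCAAT, occurred in 55.9% of member windows and 34.6% of all, and the CHR element of genes active late in the cell cycle, searched as TTTGAA, in 3.39% and 15.2%. Member windows were also richer in G and C, with a median of 65.7% against 58.7%. The 34 members with an E2F core had a median difference of 0.195 with miR-483-5p, and the 11 without had 0.05. With miR-483-3p the medians were 0.26 and 0.21. The core was uneven over the roles. Among genes with a window, it was found in 2 of 6 origin recognition, 4 of 7 helicase activation and 5 of 8 polymerase genes. It was found in 4 of 4 nucleotide supply genes, 4 of 4 genes of the MCM2 to MCM7 ring and 6 of 6 clamp and loader genes. The part of the core or of role in these differences was not tested. These are descriptions of letters in a window and not of bound sites. The 250 bases before the start are shown for 6 members with the results of this section in view: 2 of the highest with miR-483-5p (RRM1, TYMS), the clamp gene PCNA, which led with miR-483-3p, ORC1, MCM6 as a licensing helicase gene and TK1, which ran the other way. Only windows with a match in these bases could be shown, and PCNA and TK1 each have another RefSeq window without one. Capitals mark E2F core matches.
RRM1, chr11:4094435-4094684, plus strand: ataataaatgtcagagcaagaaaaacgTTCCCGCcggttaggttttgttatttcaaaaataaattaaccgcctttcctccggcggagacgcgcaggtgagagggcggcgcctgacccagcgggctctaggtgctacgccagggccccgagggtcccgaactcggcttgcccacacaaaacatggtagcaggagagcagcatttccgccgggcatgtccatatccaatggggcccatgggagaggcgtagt
TYMS, chr18:657403-657652, plus strand: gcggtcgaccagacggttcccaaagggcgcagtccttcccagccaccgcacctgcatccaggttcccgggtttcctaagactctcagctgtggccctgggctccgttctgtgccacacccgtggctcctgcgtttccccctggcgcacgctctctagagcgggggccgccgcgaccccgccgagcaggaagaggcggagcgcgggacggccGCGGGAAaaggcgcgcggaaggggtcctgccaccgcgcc
TK1, chr17:78187053-78187302, minus strand: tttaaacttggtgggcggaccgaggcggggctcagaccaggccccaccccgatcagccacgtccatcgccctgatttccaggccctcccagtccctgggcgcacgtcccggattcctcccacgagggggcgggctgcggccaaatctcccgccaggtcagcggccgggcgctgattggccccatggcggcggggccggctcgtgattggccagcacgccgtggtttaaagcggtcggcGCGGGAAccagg
PCNA, chr20:5126623-5126872, minus strand: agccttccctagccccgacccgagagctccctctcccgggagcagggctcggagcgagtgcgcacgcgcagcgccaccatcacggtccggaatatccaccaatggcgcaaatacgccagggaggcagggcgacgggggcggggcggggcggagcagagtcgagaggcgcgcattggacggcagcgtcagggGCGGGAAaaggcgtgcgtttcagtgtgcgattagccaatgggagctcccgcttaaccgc
ORC1, chr1:52404424-52404673, minus strand: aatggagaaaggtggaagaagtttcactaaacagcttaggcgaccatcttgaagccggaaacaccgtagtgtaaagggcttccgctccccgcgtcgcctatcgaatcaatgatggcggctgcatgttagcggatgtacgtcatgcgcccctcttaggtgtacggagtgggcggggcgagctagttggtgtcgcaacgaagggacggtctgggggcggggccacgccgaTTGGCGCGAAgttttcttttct
MCM6, chr2:135876444-135876693, minus strand: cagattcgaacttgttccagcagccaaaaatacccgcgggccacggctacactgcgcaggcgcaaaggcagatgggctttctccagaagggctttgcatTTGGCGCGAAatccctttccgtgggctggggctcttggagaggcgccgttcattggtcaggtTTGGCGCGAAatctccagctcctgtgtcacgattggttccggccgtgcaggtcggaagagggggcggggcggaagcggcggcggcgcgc
In MCM6 and ORC1 core matches on opposite strands overlap, once in ORC1 and at 2 places in MCM6. In TYMS, TK1 and PCNA the same letters, GCGGGAA, end 33, 6 and 53 bases before the start, and the RRM1 match ends 217 bases before it. TK1 carries the same letters as TYMS. Its signal differed in the other direction with miR-483-5p, at -0.28 (limma adjusted p = 0.572), and by 0.09 with miR-483-3p.

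Among the nucleotide supply genes, 3 of 4 were higher with miR-483-5p (median 0.41) and all 4 with miR-483-3p (median 0.30). Without control array 1 the medians were 0.12 and 0.18, and without control array 2 they were 0.58 and 0.47. RRM1, the large subunit of ribonucleotide reductase, had signals of 3527 and 3456 with miR-483-5p and 3066 with miR-483-3p, against 2259 and 2572 in the control. All 3 mimic arrays lay above both controls. The difference with miR-483-5p was 0.53 (SE 0.15, 1.44-fold, limma adjusted p = 0.344, unadjusted p = 0.00827), and with miR-483-3p 0.34 (SE 0.18, limma adjusted p = 0.836). Its second probe set gave 0.12 and 0.32.

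TYMS, thymidylate synthase, which makes the thymine nucleotide, had signals of 5367 and 5400 with miR-483-5p and 5211 with miR-483-3p, against 2922 and 4698 in the control. The mimic arrays were nearly alike, and the control arrays differed by more than any mimic array differed from control array 2. The differences were 0.535 (SE 0.23, limma adjusted p = 0.467) and 0.49 (SE 0.28, limma adjusted p = 0.869). A second bright TYMS probe set gave 0.34 and 0.54, and a dim one, at signals of 8.20 to 59.9, gave -0.06 and 0.745.

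RRM2, the small subunit of ribonucleotide reductase, which limits its activity in S phase, had signals of 2821 and 3544 with miR-483-5p and 3082 with miR-483-3p, against 2171 and 3069 in the control, so the miR-483-5p arrays overlapped the controls and the miR-483-3p array lay just above them. Its other probe set, nearly as bright, had 3066 and 2550 with miR-483-5p and 2821 with miR-483-3p, against 1888 and 1920. There the groups did not overlap, and the differences were 0.55 (SE 0.16) and 0.56 (SE 0.20), with limma adjusted p of 0.511 and 0.839 over the 26787 probe sets tested. In the brightest probe set the differences were 0.29 and 0.25, so the size for RRM2 depends on the probe set.

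TK1, thymidine kinase of the salvage route, was the exception. Its signals were 958 and 883 with miR-483-5p and 1193 with miR-483-3p, against 1224 and 1025 in the control. Both miR-483-5p arrays lay below both controls, and the miR-483-3p array lay between the controls. The difference with miR-483-5p was -0.28 (SE 0.15, limma adjusted p = 0.572), the lowest of the 51 members, and its second probe set gave -0.18. Between the mimics TK1 differed by -0.365 (miR-483-5p minus miR-483-3p, SE 0.19, limma adjusted p = 0.792).

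**Figure D3:**
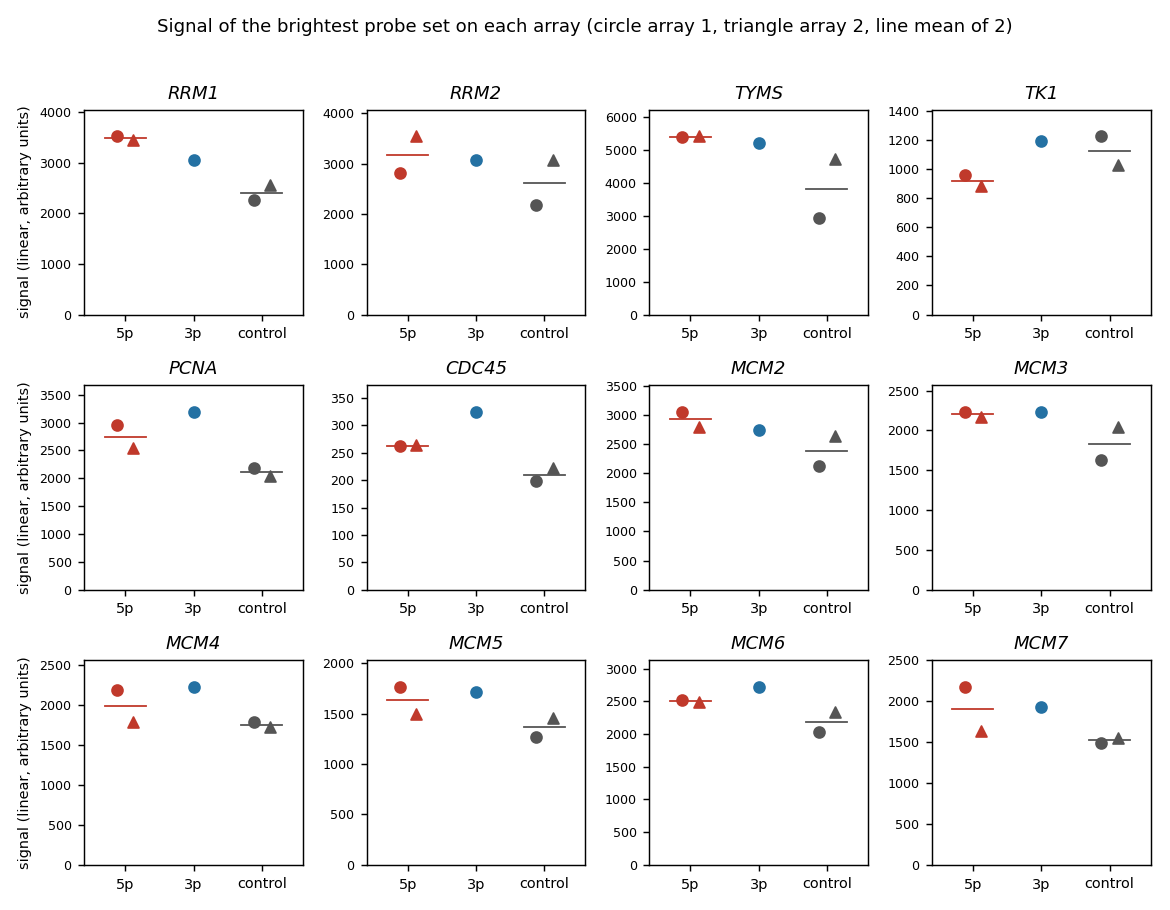
Linear signal of the brightest probe set of 12 genes on each array, grouped as miR-483-5p, miR-483-3p and control from left to right; lines are means of 2 arrays. TK1 is the gene whose miR-483-5p points lie below both controls.

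Of the 15 origin licensing genes, 14 were higher with each mimic, with medians of 0.19 for miR-483-5p and 0.235 for miR-483-3p. Without control array 1 these were 0.11 and 0.13, and without control array 2 they were 0.29 and 0.36. The median with miR-483-5p was also 0.13 and 0.29 without its own array 1 or 2. In all 6 genes of the MCM2 to MCM7 ring, the helicase that licensing loads, the arrays of either mimic lay above both controls, as in 20.3% of all genes with miR-483-5p and 33.4% with miR-483-3p. MCM2 had 3060 and 2786 with miR-483-5p and 2736 with miR-483-3p, against 2129 and 2636 in the control. MCM3 had 2238 and 2175, and 2228 with miR-483-3p, against 1631 and 2041 in the control. In both genes control array 2 lay close under the lowest mimic array and control array 1 far under it.

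MCM4 had 2191 and 1794 with miR-483-5p and 2231 with miR-483-3p, against 1792 and 1723 in the control, so that the groups only just separated. MCM5 had 1768 and 1498 with miR-483-5p and 1711 with miR-483-3p, against 1266 and 1461 in the control. The ring's other members showed the same order of groups. MCM6 had 2516 and 2485 with miR-483-5p and 2722 with miR-483-3p, against 2033 and 2341 in the control, and MCM7 had 2179 and 1642, and 1935 with miR-483-3p, against 1495 and 1548 in the control. The 6 differences ran from 0.17 to 0.31 with miR-483-5p and from 0.20 to 0.34 with miR-483-3p, and the lowest limma adjusted p was 0.562 and 0.869. Single arrays moved these sizes. Without array 1 of miR-483-5p its differences were 0.03 for MCM4, 0.108 for MCM7 and 0.136 for MCM5, and without array 2 they were 0.313, 0.509 and 0.371. Without control array 1 the miR-483-5p differences of MCM2, MCM3 and MCM6 were 0.146, 0.111 and 0.094, and without control array 2 they were 0.45, 0.429 and 0.294. The miR-483-3p differences of MCM2 and MCM3 were 0.053 and 0.125 without control array 1, and 0.358 and 0.443 without control array 2. These are the brightest probe sets. With miR-483-5p another MCM4 probe set gave -0.17 and a dim MCM6 probe set -0.14, while both were higher with miR-483-3p, at 0.33 and 0.195.

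The origin recognition complex, which marks the sites where the ring is loaded, was less uniform. ORC1, its subunit most tied to the cell cycle, had 341 and 272 with miR-483-5p and 352 with miR-483-3p, against 239 and 237 in the control. The differences were 0.32 (SE 0.16, limma adjusted p = 0.530) and 0.51 (SE 0.19, limma adjusted p = 0.728). ORC6, the smallest subunit, had 1320 and 1000 with miR-483-5p and 1041 with miR-483-3p, against 878 and 882, with differences of 0.37 and 0.23. Both genes had nearly equal controls. ORC4, a subunit of the complex's core, ran the other way at 716 and 743 with miR-483-5p and 698 with miR-483-3p, against 761 and 869 in the control. Its differences were -0.15 (SE 0.14, limma adjusted p = 0.747) and -0.21 (SE 0.18, limma adjusted p = 0.910), and a dimmer ORC4 probe set gave -0.12 and 0.001. In their brightest probe sets ORC2, ORC3 and ORC5 overlapped the controls with miR-483-5p, at differences of 0.02 to 0.20. A dimmer ORC5 probe set gave -0.23 with miR-483-5p, with both arrays below both controls, and -0.03 with miR-483-3p. A dimmer ORC2 probe set gave 0.15 with miR-483-5p and -0.70 with miR-483-3p.

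The loading factor genes CDC6 and CDT1 and GMNN, the gene of the CDT1 inhibitor geminin, differed by 0.08 to 0.18 with miR-483-5p. With miR-483-3p they differed by 0.09 to 0.30. For CDC6 the picture depended on the probe set. In the brighter one the signals were 311 and 329 with miR-483-5p and 373 with miR-483-3p, against 273 and 324 in the control. In the other they were 343 and 350 with miR-483-5p and 345 with miR-483-3p, against 238 and 238, with differences of 0.49 (SE 0.14) and 0.48 (SE 0.18).

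Of the 8 helicase activation genes, 7 were higher with miR-483-5p and all 8 with miR-483-3p, with medians of 0.15 and 0.34. CDC45, which joins the MCM ring to form the active helicase, had 262 and 264 with miR-483-5p and 325 with miR-483-3p, against 198 and 222 in the control. Its difference of 0.56 with miR-483-3p (SE 0.17, limma adjusted p = 0.644) had the lowest p of all members in that comparison, and with miR-483-5p it was 0.29 (SE 0.14, limma adjusted p = 0.528). No RefSeq window of CDC45 held the E2F core. GINS1, a subunit of the GINS complex, had 1007 and 927 with miR-483-5p and 1004 with miR-483-3p, against 723 and 828 in the control, with differences of 0.31 and 0.36. GINS2, GINS3, GINS4 and MCM10 overlapped the controls with miR-483-5p, and 2 dim GINS2 probe sets gave -0.45 and -0.36. CDC7, the kinase that fires origins, and DBF4, its activating subunit, differed by 0.19 and 0.26 with miR-483-5p and by 0.35 and 0.12 with miR-483-3p. MCM8, a relative of the ring's subunits that acts in repair by recombination, had 357 and 365 with miR-483-5p and 335 with miR-483-3p, against 302 and 261. Its difference with miR-483-5p was 0.33 (SE 0.15, limma adjusted p = 0.486), and -0.01 in a dimmer probe set.

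Polymerase genes were the least shifted of the 3 main classes. With miR-483-5p 6 of 9 were higher, with a median of 0.13, and in 3 of 9 (PRIM1, PRIM2 and POLE) the arrays lay above both controls (33.3%, against 20.3% of all genes). That median was 0.004 without control array 1, 0.23 without control array 2, and 0.03 and 0.17 without array 1 or 2 of miR-483-5p. With miR-483-3p 8 of 9 were higher, with a median of 0.175, which was 0.10 without control array 1 and 0.26 without control array 2. The order of the 3 classes rests on small groups of genes and was not tested.

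POLA1, the catalytic subunit of polymerase alpha, which starts new strands with primase, had 195 and 221 with miR-483-5p and 230 with miR-483-3p, against 191 and 231 in the control. POLD1, the catalytic subunit of polymerase delta, had 333 and 264 with miR-483-5p and 386 with miR-483-3p, against 285 and 327. Both overlapped the controls with miR-483-5p. POLE, the catalytic subunit of polymerase epsilon, had 513 and 380 with miR-483-5p and 397 with miR-483-3p, against 338 and 366, with differences of 0.31 (SE 0.18, limma adjusted p = 0.583) and 0.16 (SE 0.21, limma adjusted p = 0.957). Primase is a pair of subunits, and the smaller, PRIM1, was higher with miR-483-5p by 0.20 and its difference was -0.01 with miR-483-3p. The larger, PRIM2, was higher by 0.27 and 0.21. A further 4 probe sets listed for both PRIM2 and PRIM2BP were not used. POLA2, POLD2, POLD3 and POLE2 differed by -0.02 to 0.20 with miR-483-5p and overlapped the controls there.

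PCNA, the ring that holds polymerases on DNA, had signals of 2952 and 2539 with miR-483-5p and 3200 with miR-483-3p, against 2181 and 2047 in the control. All mimic arrays lay above both controls, which differed little. The differences were 0.37 (SE 0.15, 1.29-fold, limma adjusted p = 0.448) and 0.59 (SE 0.18, 1.51-fold, limma adjusted p = 0.647). The miR-483-3p difference was the highest of the 51 members. Of the 5 genes of replication factor C, which loads the clamp, RFC1, RFC4 and RFC5 lay above the controls with either mimic, and RFC2 and RFC3 did so with miR-483-3p. The background was 20.3% of all genes with miR-483-5p and 33.4% with miR-483-3p. RFC2 had 532 and 437 with miR-483-5p and 633 with miR-483-3p, against 440 and 523, a difference of 0.01 with miR-483-5p and 0.38 with miR-483-3p. RFC3 differed by -0.03 and 0.28. The genes of the single-strand binding protein RPA differed by 0.14 to 0.21 with miR-483-5p and 0.05 to 0.15 with miR-483-3p. FEN1, which trims the ends of lagging strand fragments, and LIG1, which seals them, overlapped the controls with miR-483-5p at -0.01 and 0.15.

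The chromatin genes CHAF1A and CHAF1B, whose products place histones on new DNA, and UHRF1, which reads hemimethylated DNA behind the fork, were higher with both mimics and did not overlap the controls, as was so for 20.3% of all genes with miR-483-5p and 33.4% with miR-483-3p. Their differences ran from 0.20 to 0.29 with miR-483-5p and from 0.16 to 0.36 with miR-483-3p. UHRF1 had signals of 2583 and 2412 with miR-483-5p and 2619 with miR-483-3p, against 1863 and 2232 in the control. All 3 CHAF1A probe sets that passed the filter were higher with each mimic, from 0.22 to 0.52 with miR-483-5p.

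Agreement among probe sets was partial. The members have 94 probe sets, of which 90 passed the filter, and 27 members had more than 1 of these. With miR-483-5p all probe sets of a gene were higher in 11 of the 27, all were lower in 2 (ORC4 and TK1), and 14 had probe sets of opposed sign. With miR-483-3p all were higher in 16 and 11 were opposed. Over single probe sets, 67 of 90 were higher with miR-483-5p (46.8% of all probe sets tested) and 77 of 90 with miR-483-3p (49.4% of all), and none passed limma over the 26787 probe sets, with lowest adjusted p of 0.510 and 0.834.

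**Figure D4:**
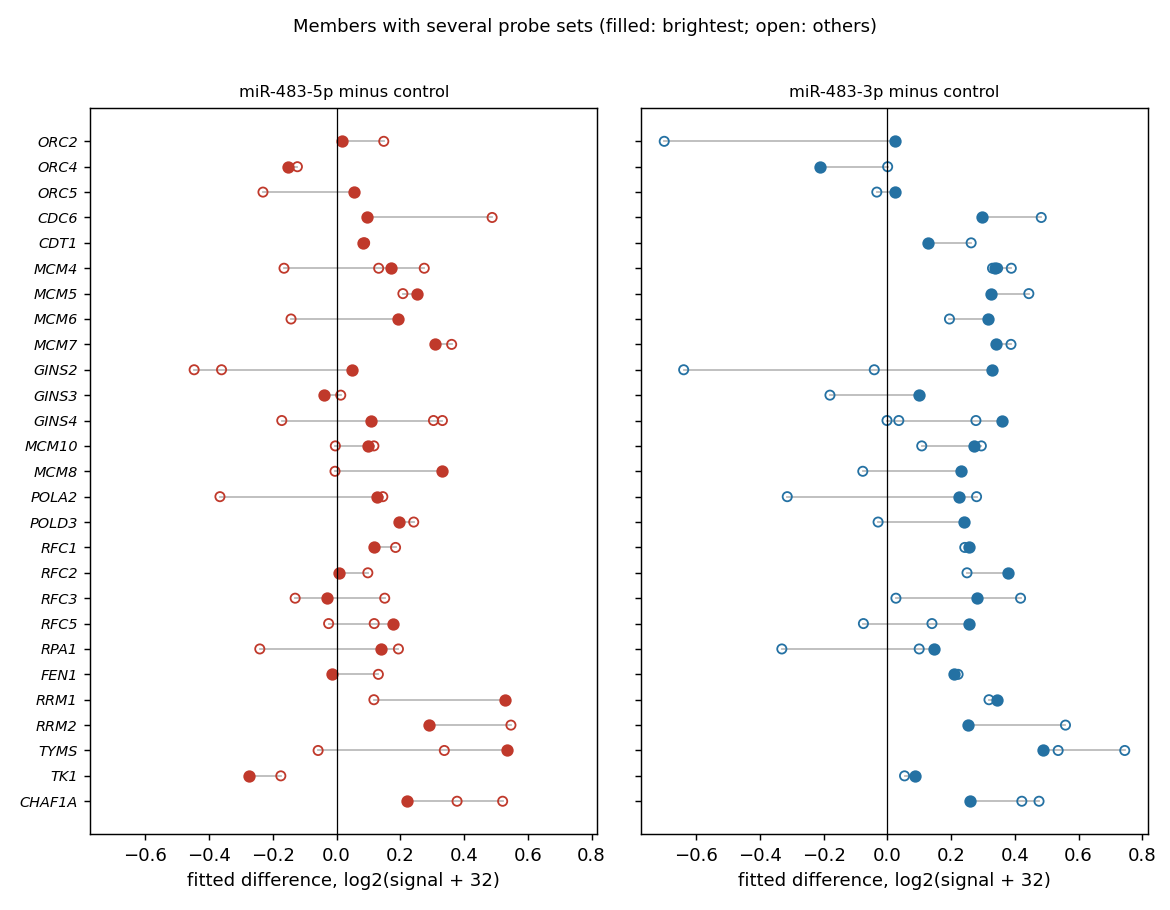
Fitted difference of each probe set of the 27 genes with several (filled, the brightest; open, the others), for miR-483-5p (left) and miR-483-3p (right) against the control. TK1 and ORC4 are the 2 genes with every probe set below 0 on the left.

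Between the mimics the members differed little. The median of miR-483-5p minus miR-483-3p was -0.05 on the log2 scale, where that over all genes was 0.001, with 17 of 51 members higher (50.2% of all genes) and 34 lower (49.8%). The lowest limma adjusted p of a member was 0.792, and no member had an unadjusted p under 0.05 (0 of 51, against 6.65% of all genes, of which 3.41% were higher and 3.24% lower). The range ran from -0.37 for RFC2 to 0.21 for PRIM1. Nucleotide supply genes had a median of 0.04, licensing genes -0.01, polymerase genes -0.05 and clamp and loader genes -0.18. With 1 array of miR-483-3p, its spread is assumed to equal that of the other groups.

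Other replication and nucleotide genes, a list of 41 of which 38 were tested, were also counted. With miR-483-5p 28 of the 38 were higher (73.7%, against 48.5% of all genes) and with miR-483-3p 30 were (78.9%, against 49.8%), each at a median of 0.18. In 19 of the 38 both miR-483-5p arrays exceeded the controls (50%, against 20.3%) and in 1 both were lower (2.63%, against 22.2%). The miR-483-3p array was above both controls in 27 (71.1%, against 33.4%) and below both in 5 (13.2%, against 35.4%). No test compared this list with the 51 members. None passed limma after adjustment. TIPIN, a fork protection gene, had the lowest p of the list in both comparisons. It had 379 and 364 with miR-483-5p and 325 with miR-483-3p, against 200 and 234 in the control, with differences of 0.70 (SE 0.15, limma adjusted p = 0.332) and 0.525 (SE 0.18, limma adjusted p = 0.676). All 3 mimic arrays lay above both controls. TIMELESS, whose product binds that of TIPIN, had 1021 and 862 with miR-483-5p and 853 with miR-483-3p, against 685 and 660, with differences of 0.46 and 0.33. TICRR, which helps to activate the helicase, differed by 0.51 with miR-483-5p and the nuclease gene DNA2 by 0.40 with miR-483-3p. SAMHD1, whose product breaks down deoxynucleotides, had 77.2 and 80.5 with miR-483-5p and 126 with miR-483-3p, against 79.1 and 85.0, a difference of 0.47 with miR-483-3p.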

How the data were processed

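RNA of 5 samples was measured on Affymetrix arrays. The authors deposited linear intensity for 54675 probe sets. GCOS and Partek appear in the submitters' processing notes, with no version. The sources used here do not name the signal algorithm. Without detection calls, the distance of dim probe sets from background is not known. Every deposited intensity column, trimmed by 2% at both ends, averages 150.0, a common scaling. Groups came from the labels.

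Control probe sets (62) were removed. In the platform annotation there are 41097 probe sets with 1 symbol, 1801 with several and 11777 with none, and no gene was named from several. Of those with 1 symbol, 41037 matched the RefSeq table of GRCh38.p14 by gene identifier, used for names. Each gene took its brightest probe set (mean log2 value), and those below percentile 40, at a signal of 27.2, were dropped. Values were log2(signal + 32), and limma 3.58.1 (R 4.3.3) fitted 1 mean for each group to all 5 arrays, with 2 residual and 4.96 prior degrees of freedom, two-sided tests and Benjamini-Hochberg adjustment over all genes. The miR-483-3p array is assumed to vary like the others. An exact permutation test of 2 arrays against 2 cannot give a p below 0.333, so none was used. Precision is limited by having only 5 arrays.

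Values on every array are given for RRM1, RRM2, TYMS, TK1, PCNA, MCM2 to MCM7, POLA1, POLD1 and POLE, and, for each mimic against the control, for the 6 highest and 3 lowest members whose arrays do not overlap, of which there were only 2 low ones with miR-483-5p and 1 with miR-483-3p. Of the wider list the 3 genes with the lowest p per mimic are named. CDC6 and UHRF1 are given in full, and CCND1, LIPI and STEAP1 among the markers, by choice after their values were seen, as were the single probe sets described. The members and lists were chosen with earlier results of these data known. Figures were drawn with matplotlib 3.10.9. Promoter sequences are RefSeq's.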

Additional observations from a re-analysis of the deposited data

How the results depend on the processing

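Of 14 alternatives, none brought a member past the limma threshold in any comparison. The alternatives without the filter on dim genes and with a stricter one did not change the filter alone. Both also lowered the pseudocount from 32 to below 1. Their differences are therefore close to those of the alternative at a pseudocount of 1. A filter leaves the difference of a gene as it is. ORC1 with miR-483-5p was 0.355 under both, against 0.318 with the settings used and 0.354 at a pseudocount of 1. Dependence on the filter alone was therefore not tested. The member median stayed between 0.13 and 0.25 with miR-483-5p, between 0.19 and 0.29 with miR-483-3p and between -0.12 and -0.01 between the mimics. Over all genes, limma called 0 with the settings used, and with each array centred on its median 37 with miR-483-5p, 2 with miR-483-3p and 7 between the mimics. A pseudocount of 100 gave 33 and 1 against the control, and a prior that follows intensity 39 and 1. With that pseudocount 8 members had an unadjusted p under 0.05 in each comparison with the control, and with that prior 9, against 12.5% and 12.8% of all genes with miR-483-5p and 6.51% and 6.63% with miR-483-3p. The cause was not tested. With arrays left out in turn, the median with miR-483-5p ran from 0.004 to 0.227 for polymerase genes and from 0.119 to 0.578 for nucleotide supply genes, the lowest in each case without control array 1. The number of members above the control, an alternative chosen after seeing the data, ran from 38 to 47 with miR-483-5p and from 44 to 50 with miR-483-3p. Some values of single members could not change under some alternatives. The prior alters only p-values, and the setting of single probe sets was read at the brightest one. The replicate block leaves differences with miR-483-5p as they were. Leaving out a miR-483-5p array does the same for miR-483-3p against the control. Other probe sets of a gene entered only through their mean. Of 588 values of single members under alternatives, these included, 578 kept their direction. The exceptions were differences near 0. With miR-483-5p POLA1 was 0.017 after median centring and ran from -0.135 to 0.099 with arrays left out, POLD1 from -0.190 to 0.115 and RFC2 from -0.127 to 0.140. With miR-483-3p TK1 ran from -0.036 to 0.212 and POLA1 from -0.002 to 0.232 with arrays left out. The labels do not pair the arrays across groups. A replicate block of array 1 against array 2 gave TK1 -0.002 with miR-483-3p, member medians of 0.187, 0.239 and -0.083, and 0 genes called, and the deviations of same-numbered arrays correlated at 0.167 across genes. Without detection calls, differences that rest on dim probe sets are the least certain.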
